A study of Mus musculus with 12 samples.

Results

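Tetrahydrobiopterin (BH4) is the cofactor of the nitric oxide synthases, the aromatic amino acid hydroxylases and alkylglycerol monooxygenase. It is made from GTP by GTP cyclohydrolase I (GTPCH, encoded by Gch1), 6-pyruvoyltetrahydropterin synthase (Pts) and sepiapterin reductase (Spr). Spent cofactor is regenerated by pterin-4a-carbinolamine dehydratase (Pcbd1, with its paralogue Pcbd2) and quinoid dihydropteridine reductase (Qdpr), and the GTPCH feedback regulator (Gchfr) binds GTPCH and lets BH4 inhibit it. In the heart, BH4 is made in cardiomyocytes and also in other cells such as the endothelium. The expression of these 7 genes was followed one by one in hearts in which the first enzyme had been deleted from cardiomyocytes. They were found by matching their symbols in GENCODE M21 to the Ensembl identifiers of the count table, which holds 26921 genes, and each of the 7 had counts in every library.

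RNA had been taken at 16 weeks of age from the left ventricles of 6 WT and 6 cmGch1 KO mice, with 1 library per animal. Mice of both groups carried floxed Gch1 alleles (Gch1 flox/flox), and cmGch1 KO mice were in addition heterozygous for a Cre recombinase transgene driven in cardiomyocytes by the α-MHC promoter, so that other cells of the ventricle kept an intact gene. Mice with Cre and without floxed alleles were not among the sequenced groups, so that the presence of Cre and the loss of Gch1 cannot be told apart here. The labels do not give the sex of the animals, and both sexes were used in the study.

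Libraries held between 19921398 and 37917806 counts. Of these, 2 stood apart. The cmGch1 KO replicates 2 and 3 had Xist, the RNA of the inactive X chromosome, at 86.7 and 99.1 cpm (counts divided by the library size in megacounts, scaled by edgeR's TMM factors) and no count of 4 Y-linked genes. Xist did not exceed 0.234 cpm in any of the remaining 10, which had the Y-linked genes at a summed 166.9 to 192.3 cpm. By these genes the 2 libraries were from females and the 10, with every WT library among them, from males. Sex is therefore partly confounded with genotype in the comparisons below. These 2 libraries also had the lowest share of counts from mitochondrial genes, 14.9% and 16.1%, against 18.3% to 22.9% elsewhere. The genotype differences of the BH4 genes are therefore also given without them. Cardiomyocyte markers made up the bulk of the marker signal in every library, with a summed level of 75427 to 81303 cpm in WT and 67839 to 77470 cpm in cmGch1 KO hearts for 10 genes such as Myh6 and Tnnt2. In the comparison of the genotypes by edgeR's quasi-likelihood test, 50 genes (0.445% of the 11225 tested) were lower in cmGch1 KO hearts and 76 (0.677%) were higher at an FDR under 0.05.

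Gch1 (ENSMUSG00000037580), the deleted gene, is a minus-strand gene (chr14:47153895-47189413, mouse build GRCm38) and has 6 exons in its protein-coding transcript. The floxed region holds exons 2 and 3, which encode part of the active site of GTPCH. They are shown because their loss defines the cmGch1 KO allele. Both exons are coding, exon 2 (chr14:47169212-47169321) with 110 bases and exon 3 (chr14:47166476-47166531) with 56 bases. In the sense of the transcript, with exon 2 in lower case and exon 3 in capitals, they read:
Gch1 exons 2 and 3: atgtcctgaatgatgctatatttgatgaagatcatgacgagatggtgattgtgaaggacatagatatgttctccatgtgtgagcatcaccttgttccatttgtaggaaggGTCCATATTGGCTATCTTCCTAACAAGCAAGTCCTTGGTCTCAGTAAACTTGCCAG
Together they hold 166 bases. Exons 2 and 3 are 22.96% of the coding bases but 5.98% of the bases of the transcript. Counts were deposited per gene and not per exon, so that reads from a shortened Gch1 RNA of cardiomyocytes and reads from intact RNA of other cells count alike.

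Gch1 was at 9.27, 10.8 and 12.1 cpm (lowest, median and highest library) in WT hearts and at 3.92, 5.56 and 6.32 cpm in cmGch1 KO hearts. The 2 ranges did not overlap, and the highest cmGch1 KO library stood well under the lowest WT library. The means were 10.7 ± 0.974 cpm (SD, n = 6) and 5.48 ± 0.855 cpm (SD, n = 6), from between 96 and 378 counts of Gch1 per library. Gch1 fell by 0.96 on the log2 scale (standard error 0.11, adjusted p = 6.88e-04 by the quasi-likelihood test of edgeR, with the Benjamini-Hochberg method over all tested genes). This left 51.4% of the WT level, with a 95% interval from 43.5% to 60.9%. An exact permutation test gave p = 0.00216 (two-sided), the smallest p that 6 libraries against 6 allow. Complete separation with cmGch1 KO on the lower side was found for 0.802% of all tested genes, and the groups did not overlap in either direction for 1.87%. A log2 fold change as low as that of Gch1 or lower was found for 0.125%. By its log2 fold change Gch1 was the 9th lowest of the 126 genes called in either direction (1.12% of the tested genes).

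Without cmGch1 KO replicates 2 and 3 the log2 fold change of Gch1 was -0.99. The lowest Gch1 level was that of cmGch1 KO replicate 1, and without that library the log2 fold change was -0.88. Over the 21 alternative settings it lay between -1.01 and -0.66, and Gch1 was called under each of them. The value nearest to 0 came from the authors' normalised values in place of the counts. These are on a log2-like scale whose tool is not given, so -0.66 may not be comparable with the fold changes from counts. With counts scaled by library size alone the log2 fold change was -0.88. The plot of Gch1 by setting shows the 12 fits that each left out 1 library between -1.01 and -0.88.

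**Figure D1:**
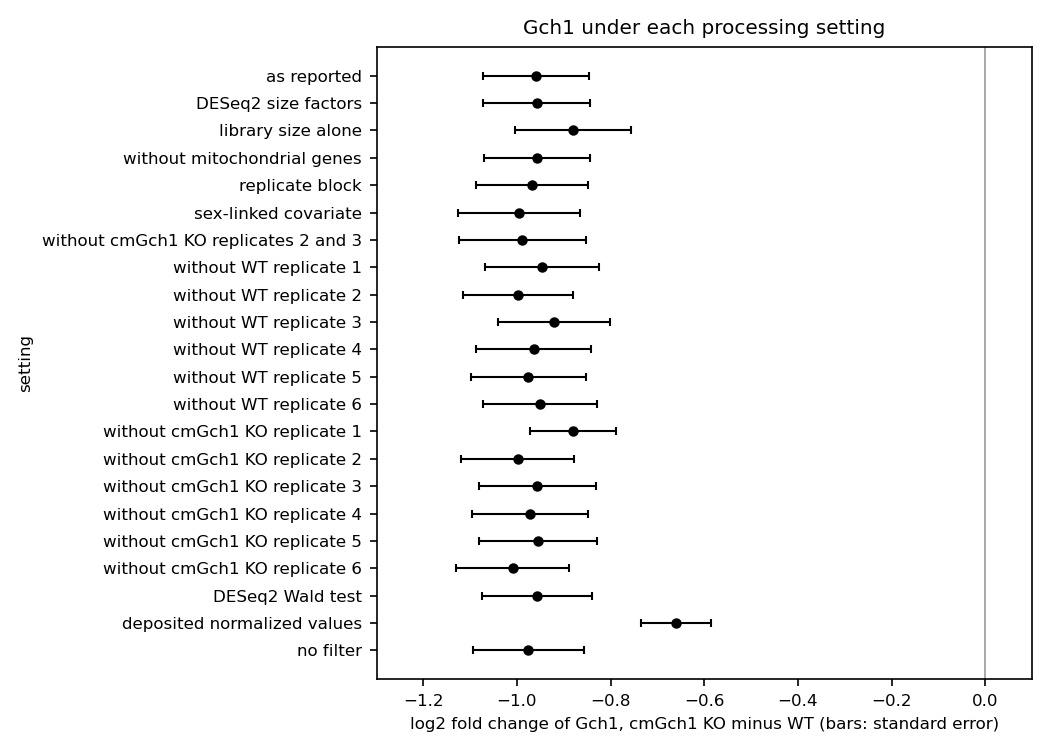
Log2 fold change of Gch1 in cmGch1 KO against WT hearts (x axis) under each processing setting (y axis), with bars for the standard error and the reported value at the top. Every setting lies left of 0, between -1.01 and -0.66. The value nearest to 0 is from the authors' normalised values, whose log2-like scale may differ from that of the counts.

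In bulk tissue, fewer cells of a type and less RNA per cell cannot be told apart. The mean summed level of the 10 cardiomyocyte markers differed by -9.14% in cmGch1 KO from WT hearts, and 9 of the 10 had a negative log2 fold change. That of 8 macrophage markers was 22.4% higher, with 158 to 207 cpm in the WT group and 202 to 255 cpm in the cmGch1 KO group. That of 9 endothelial markers was 1.04% higher (816 to 999 cpm against 884 to 1017 cpm) and that of 8 fibroblast markers 12.4% higher (865 to 1141 cpm against 973 to 1221 cpm). By an exact permutation test of the summed levels (two-sided, n = 6 each, adjusted over the 7 marker lists), p was 0.00433 for the cardiomyocyte list and 0.00649 for the macrophage list (adjusted p = 0.0227 for each), and between 0.0671 and 0.909 for the other 5 lists (lowest adjusted p = 0.157). None of these 4 lists had a gene called by edgeR's test at an FDR under 0.05, beside 1.12% of all tested genes. By that test, each of the 7 macrophage markers tested had an unadjusted p under 0.05. So had 2 of 8 fibroblast markers, 1 of 9 endothelial markers and 0 of 10 cardiomyocyte markers, beside 11.5% of all tested genes. Of 8 pericyte and smooth muscle markers 1 was called higher, and their sum was 1159 to 1322 cpm against 1233 to 1311 cpm. Lymphocyte markers summed to at most 1.77 cpm against at most 2.65 cpm, and atrial markers to 7.62 to 283 cpm against 45.1 to 187 cpm. No listed marker was at 0 in all libraries. The part of these shifts in the level of Gch1 and of the other BH4 genes was not tested.

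The members of the pathway downstream of GTPCH were next compared. Pts, Spr, Qdpr, Pcbd2 and Gchfr passed the filter on low expression (cpm over 3 in at least 6 libraries), while Pcbd1 did not, and its values come from the same fit without a filter. Of the 6 genes of the pathway that were tested with the filter, Gch1 was called and the other 5 were not, beside 1.12% of all tested genes called. The ranges of the genotypes overlapped for each of the 6 genes besides Gch1, as the plot of cpm by library shows.

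**Figure D2:**
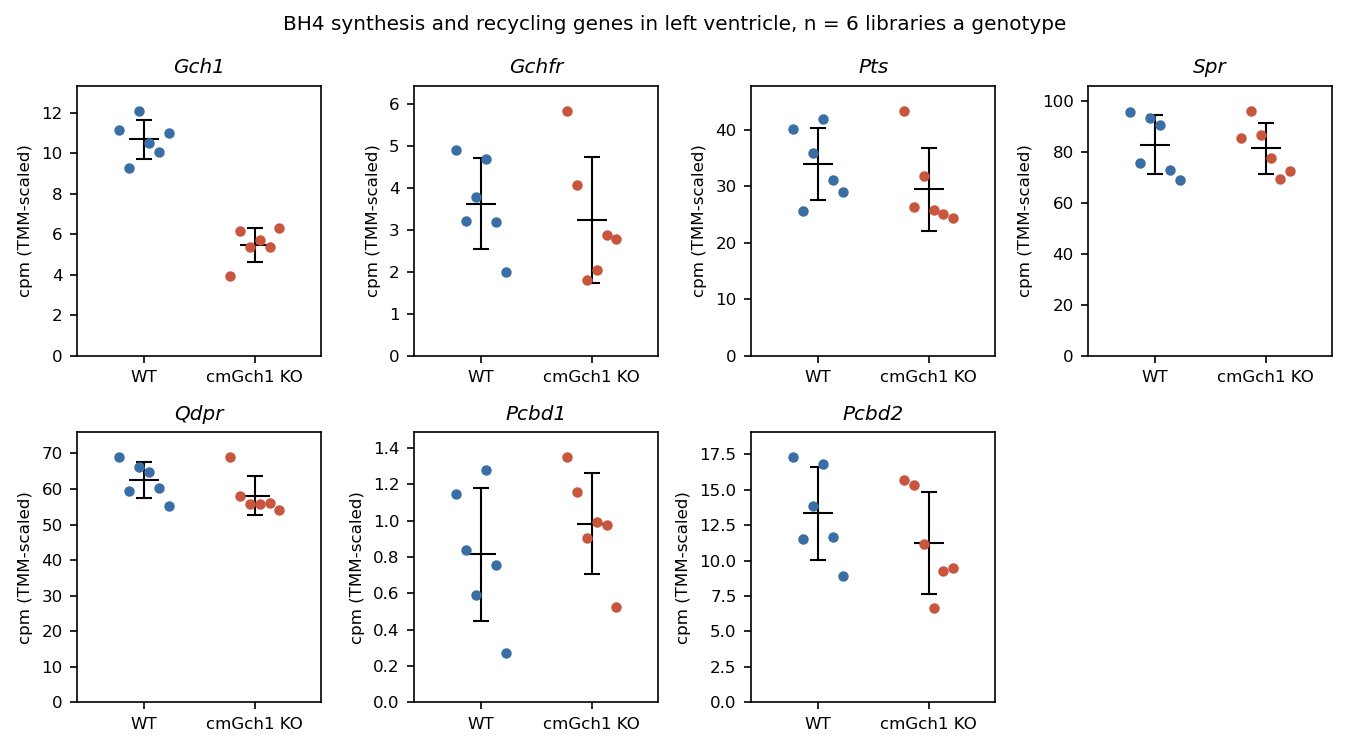
Expression (cpm scaled by TMM factors, y axes from 0) of the 7 BH4 genes in each WT (blue) and cmGch1 KO (red) library, with the mean and SD as black bars (n = 6 each). The genotypes are apart for Gch1, at 9.27 cpm and above in WT against 6.32 cpm and below in cmGch1 KO hearts, and overlap for the other 6 genes.

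Pts (ENSMUSG00000032067, chr9:50521617-50528724, minus strand), whose product converts dihydroneopterin triphosphate into 6-pyruvoyltetrahydropterin, was at 25.6, 33.5 and 41.9 cpm (lowest, median and highest library) in the WT group and at 24.5, 26.0 and 43.4 cpm in the cmGch1 KO group. The highest library of all was cmGch1 KO replicate 1, while 4 of the other 5 cmGch1 KO libraries were between 24.5 and 26.3 cpm. That is around the lower end of the WT range, and 2 of them were below every WT library. On the log2 scale the difference was -0.21 ± 0.16 (SE; edgeR's test, adjusted p = 0.711), with a 95% interval from 68.8% to 109.4% of the WT level.

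Spr (ENSMUSG00000033735, chr6:85130176-85137766, minus strand) encodes the reductase that completes BH4 synthesis. It was at 69.0, 83.0 and 95.4 cpm in the WT group and at 69.5, 81.6 and 96.1 cpm in the cmGch1 KO group, so that the 2 ranges nearly coincided. The difference on the log2 scale was -0.03 ± 0.10 (SE, edgeR's test, adjusted p = 0.968) and the 95% interval ran from 84.3% to 114.4% of the WT level. The sign of this small difference changed with the scaling, to 0.05 when counts were scaled by library size alone. A pseudogene copy, Spr-ps1, could share reads with Spr and did not exceed 0.221 cpm.

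Qdpr (ENSMUSG00000015806, chr5:45434021-45450236, minus strand), which reduces quinonoid dihydrobiopterin back to BH4, was at 55.3, 62.6 and 68.8 cpm in the WT group and at 53.9, 56.0 and 69.0 cpm in the cmGch1 KO group. Replicates 2 to 6 of the cmGch1 KO group lay between 53.9 and 57.9 cpm, and replicate 1 was at the top of the WT range. The difference of -0.11 ± 0.08 (SE, log2 scale, edgeR's test, adjusted p = 0.685) had the narrowest interval on that scale among the 7 genes, from 82.9% to 104.0% of the WT level. An annotated antisense gene, Gm42413, shares 332 exonic bases with Qdpr and was not analysed here.

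The dehydratase genes were lower in level. Pcbd2 (ENSMUSG00000021496, chr13:55727368-55776830, plus strand) was at 8.9, 12.8 and 17.3 cpm in the WT group and at 6.63, 10.3 and 15.7 cpm in the cmGch1 KO group. The difference was -0.25 ± 0.21 (SE, log2 scale, edgeR's test, adjusted p = 0.741), with an interval from 61.3% to 114.7% of the WT level. It shares 27 exonic bases with an antisense gene, 4930451E10Rik, and how strand was used in counting is not given in the sources used here. Pcbd1 (ENSMUSG00000020098, chr10:61089331-61094324, plus strand), the first of the dehydratases named above, was at 0.274, 0.799 and 1.28 cpm in the WT group and at 0.524, 0.982 and 1.35 cpm in the cmGch1 KO group, from 6 to 46 counts per library. In the fit without a filter, in which 0.572% of the genes were called, its difference was 0.21 ± 0.31 (SE, log2 scale, edgeR's test, adjusted p = 0.83). The interval ran from 73.5% to 181.9% of the WT level. The coefficient of variation of Pcbd1 was 44.9% in the WT group and 28.1% in the cmGch1 KO group, where counting error alone would give 24.3% and 20.04%.

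Gchfr (ENSMUSG00000046814, chr2:119167773-119172390, plus strand), the feedback regulator, had the widest relative spread of the BH4 genes that passed the filter. It was at 2.01, 3.5 and 4.9 cpm in the WT group and at 1.81, 2.83 and 5.85 cpm in the cmGch1 KO group. Both the highest library, cmGch1 KO replicate 1, and the lowest, cmGch1 KO replicate 3, were of the cmGch1 KO group. The coefficient of variation was 29.6% in WT and 46.4% in cmGch1 KO libraries, where counting error alone would give 10.3% and 11.6%. On the log2 scale it differed by -0.18 ± 0.28 (SE, edgeR's test, adjusted p = 0.894), with an interval from 58.3% to 132.8% of the WT level.

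Without cmGch1 KO replicates 2 and 3 the log2 fold changes were -0.19 for Pts, -0.11 for Spr, -0.09 for Qdpr, -0.39 for Pcbd2, -0.12 for Gchfr and 0.18 for Pcbd1. Without cmGch1 KO replicate 1 they were -0.35 ± 0.13 (SE) for Pts, -0.04 ± 0.11 for Spr, -0.16 ± 0.06 for Qdpr, -0.37 ± 0.21 for Pcbd2, -0.44 ± 0.24 for Gchfr and 0.10 ± 0.33 for Pcbd1, with the lowest adjusted p (0.182, edgeR's test) for Pts. Over the 12 fits with 1 library fewer, Pts lay between -0.35 and -0.14 (without WT replicate 4), Qdpr between -0.16 and -0.08 (without WT replicate 1), Pcbd2 between -0.37 and -0.14 (without cmGch1 KO replicate 4), Gchfr between -0.44 and -0.07 (without cmGch1 KO replicate 3) and Pcbd1 between 0.05 (without WT replicate 6) and 0.39 (without WT replicate 4). None of these 6 genes was called under any of the alternative settings. The 5 tested genes other than Gch1 each had a negative log2 fold change, with a median of -0.18, beside -0.01 over all tested genes, of which 53.3% were negative. The median lay between -0.08 (without WT replicate 1) and -0.35 (without cmGch1 KO replicate 1) when 1 library was left out, and Spr was positive with scaling by library size alone. The plot of log2 fold changes shows the interval of Gch1 to the left of the others except that of Gchfr, whose lower end it overlaps.

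**Figure D3:**
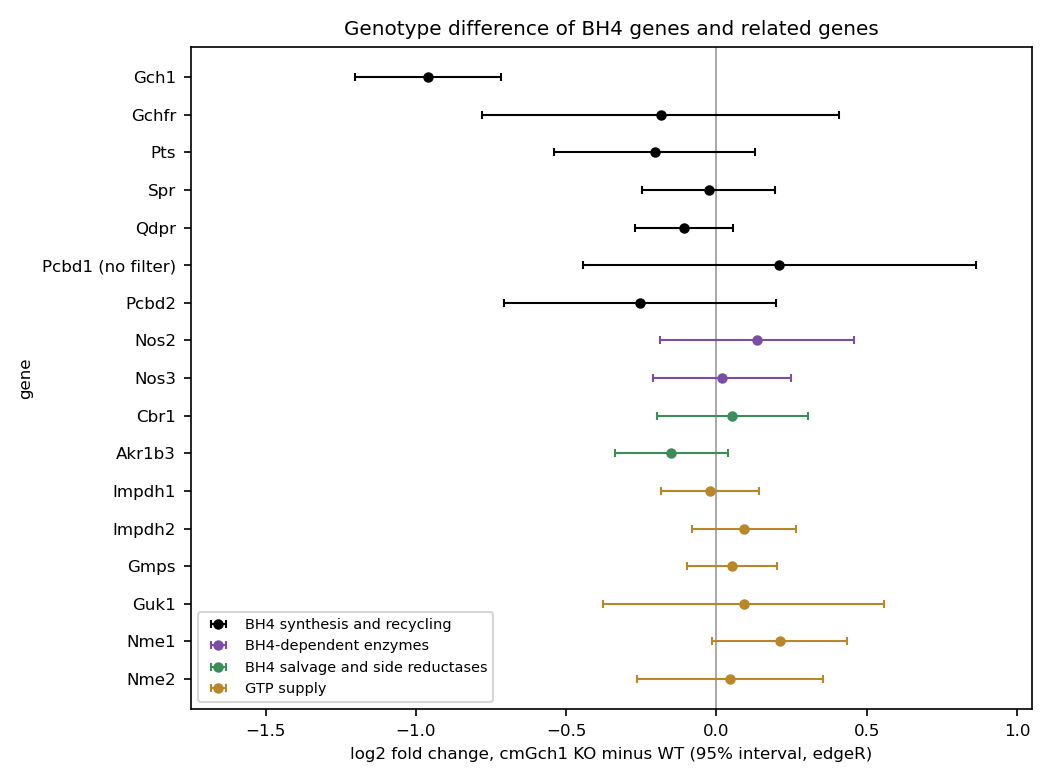
Difference between cmGch1 KO and WT hearts on the log2 scale (x axis, points) with its 95% interval (bars) for the 7 BH4 genes and for the tested genes of 3 related lists (y axis, coloured by list), Pcbd1 from the fit without a filter. The intervals of all the genes besides Gch1 include 0, and that of Gch1 runs from -1.20 to -0.72.

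Since GTPCH and its regulator act as a complex, the counts of Gch1 were also set against those of Gchfr in each library. In WT hearts there were between 2.24 and 5.48 counts of Gch1 per count of Gchfr, with a geometric mean of 3.06. In cmGch1 KO hearts there were between 0.671 and 2.98, with a geometric mean of 1.82. In cmGch1 KO replicate 1 the counts of Gchfr exceeded those of Gch1, which was not so in any other library. The log2 ratio was 1.61 ± 0.47 (SD, n = 6) for the WT group and 0.86 ± 0.79 (SD, n = 6) for the cmGch1 KO group. Gch1 is the deleted gene, so its own fall lowers this ratio, and a test of the ratio cannot show a change of Gchfr. The difference of -0.75 did not pass the threshold (exact permutation test, two-sided, p = 0.0519), and 3 of the 6 cmGch1 KO libraries were below every WT library. The call turned on single libraries, with 4 of the 12 differences that each left out 1 library past the threshold and 8 not. Without WT replicate 1 the difference was -0.84 (exact permutation p = 0.039), without WT replicate 4 it was -0.84 (p = 0.0346 by the exact test), without cmGch1 KO replicate 3 it was -0.89 (exact p = 0.026) and without cmGch1 KO replicate 4 it was -0.88 (exact p = 0.039). It was smallest without cmGch1 KO replicate 1, at -0.46 (exact p = 0.104), and without WT replicate 6 it was -0.58 (exact p = 0.104). In the remaining 6 the exact p lay between 0.0693 and 0.104. On the authors' normalised values, whose log2-like scale may differ from that of the counts, it was -0.55 (exact p = 0.0108). Without cmGch1 KO replicates 2 and 3 it was -0.86 (exact p = 0.0571).

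**Figure D4:**
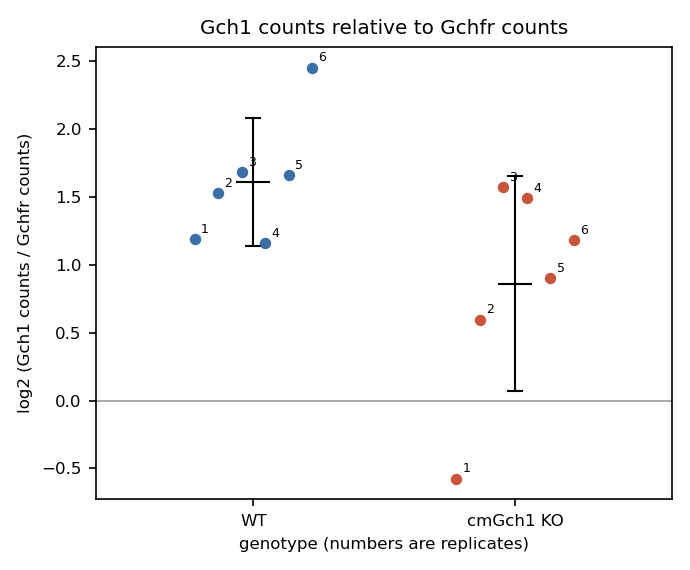
Log2 ratio of Gch1 counts to Gchfr counts (y axis) in each WT and cmGch1 KO library (points numbered by replicate), with the mean and SD as black bars (n = 6 each). Of the cmGch1 KO libraries 3 lie within the WT range and 3 below it, and replicate 1 is the only library below 0.

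Levels were compared between genes per kilobase, with the mean WT cpm divided by the length of the longest protein-coding transcript. On that scale Spr was highest at 67.3 ± 9.47 (SD, n = 6), followed by Qdpr at 45.3 ± 3.62, Pts at 32.5 ± 6.12, Pcbd2 at 24.4 ± 6.01, Gchfr at 5.63 ± 1.66, Gch1 at 3.85 ± 0.351 and Pcbd1 at 1.03 ± 0.464 cpm per kilobase. The WT ranges of Qdpr and Pts, of Pts and Pcbd2, and of Gchfr and Gch1 overlapped, and those of the other neighbours in this order did not. Gch1 came before Pcbd1 at the lower end of this order in WT hearts, and in cmGch1 KO hearts it was at 1.97 cpm per kilobase. With all annotated exons as the length, Qdpr came first and Gch1 and Pcbd1 again came last, so the order of the upper genes depends on which transcripts are counted.

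The 6 genes besides Gch1 were often high or low in the same libraries. In WT replicate 1, WT replicate 4 and cmGch1 KO replicate 1 each of the 6 genes besides Gch1 was above its own median over the 12 libraries, and in WT replicate 6 and cmGch1 KO replicate 6 none was. Within the cmGch1 KO group, replicate 1 had the highest level of 5 of these 6 genes and the lowest level of Gch1. This pattern was examined after the values had been seen. Over the 10 pairs among Gchfr, Pts, Spr, Qdpr and Pcbd2, Pearson's r of log2 cpm lay between 0.57 and 0.88 and Spearman's rho between 0.56 and 0.89 (n = 12 libraries). These values include the difference between the genotypes. Within the WT group r lay between 0.77 and 0.99 (n = 6). Within the cmGch1 KO group it lay between 0.33, for Gchfr with Spr, and 0.90, for Pts with Qdpr (n = 6). By a permutation test with 100000 resamples and Benjamini-Hochberg adjustment over the 10 pairs, 9 pairs passed an adjusted p of 0.05 for Pearson's r and 6 pairs for Spearman's rho. The test used the same libraries in which the pattern had been seen, so its result is a description. The share of passing pairs over all tested genes was not taken. When each pair was taken without the 2 libraries farthest from the median of its first-named gene, r lay between 0.59 and 0.96. The libraries left out could therefore differ between pairs. As a description, the correlation with Gch1 was taken over the same 12 libraries together, after the genotype means were subtracted. It was -0.35 for Gchfr, -0.44 for Pts, 0.12 for Spr, -0.45 for Qdpr and -0.23 for Pcbd2. These values pool both genotypes and include cmGch1 KO replicate 1. They do not show an inverse relation in each genotype, which was not tested, nor was the part of that library.

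Many tested genes varied over the libraries in the same way. Pts had an r of 0.8 or more with 990 of the other tested genes (8.82%), Qdpr with 961 (8.56%), Pcbd2 with 819 (7.30%), Spr with 643 (5.73%) and Gchfr with 407 (3.63%). The genes that followed Pts had a median transcript length of 1530 bases and those that followed Pcbd2 had 1285, against 3267 bases over all tested genes with a protein-coding transcript. In comparison with WT, the genes that followed Pts had a median log2 fold change of -0.11 and those that followed Qdpr had -0.12, beside -0.21 for Pts and -0.11 for Qdpr themselves. These genes were picked by values that include the difference between the genotypes, so their medians follow in part from the choice. The part of this library-wide pattern in the differences of the 5 genes between genotypes was not tested. The plot of deviations by library shows the 5 genes high in WT replicates 1 and 4 and cmGch1 KO replicate 1, with Gch1 apart from them in the last.

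**Figure D5:**
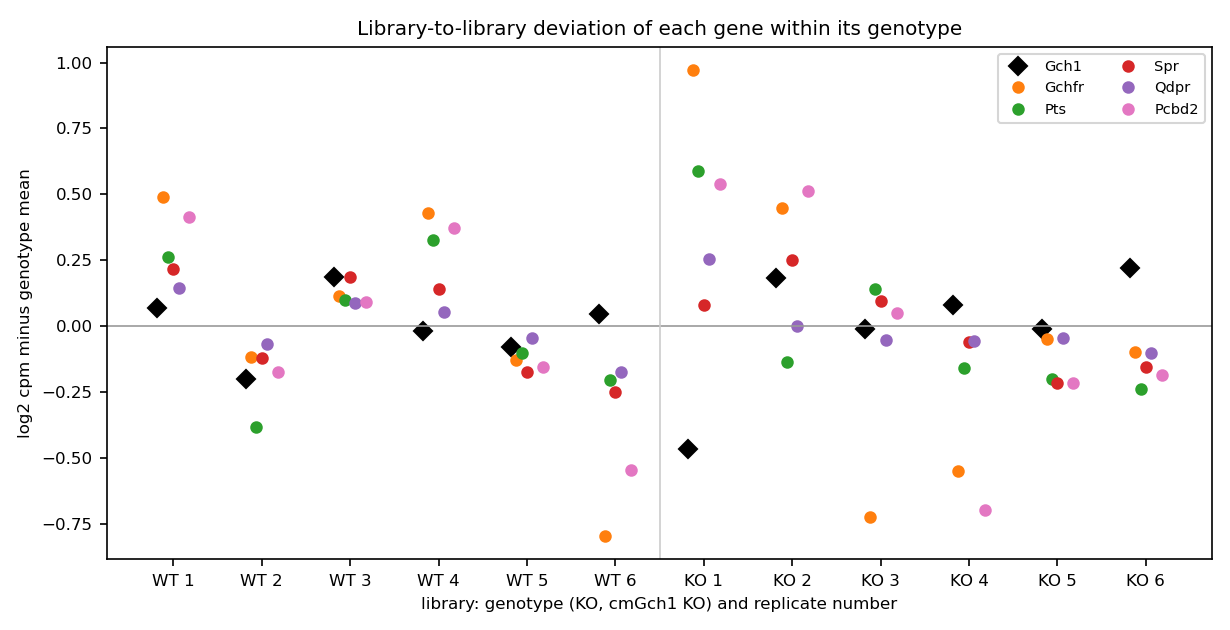
Log2 cpm of each gene minus the mean of its genotype (y axis) in each of the 12 libraries (x axis), for Gch1 (black diamonds) and the 5 other BH4 genes that passed the filter (coloured circles). The 5 genes lie above 0 in WT replicate 1, WT replicate 4 and cmGch1 KO replicate 1, where Gch1 has its lowest point, and below 0 in WT replicate 6 and cmGch1 KO replicate 6.

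The 5 tested genes whose log2 cpm followed Gch1 most closely over the 12 libraries were named, with Pearson's r as a description, since the gap between the genotypes is shared by construction. They were Alox5 (0.95), the lipoxygenase of leukotriene synthesis, Amy1 (0.93), an amylase, Wdr5 (0.90), a subunit of histone methyltransferase complexes, Maob (0.90), a mitochondrial monoamine oxidase, and Egln1 (0.90), the prolyl hydroxylase that marks HIF for degradation. Whether related amylase genes shared reads with Amy1 was not examined. After the genotype means were subtracted, r with Gch1 was 0.62 for Alox5, 0.65 for Egln1, 0.40 for Wdr5, 0.25 for Maob and -0.04 for Amy1. Of these 5, Alox5, Amy1 and Maob were called by edgeR's test, beside 1.12% of all tested genes. The 5 were picked by values that include the gap between the genotypes, so the calls follow in part from the choice. The mean of Alox5 was 23.1 cpm for WT and 15.6 cpm for cmGch1 KO libraries, and that of Maob 56.8 and 37.2 cpm.

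Genes beside Gch1 on chromosome 14 were examined next. Of 9 tested genes that start within 500 kb of the start of Gch1, none was called by edgeR's test and none had an unadjusted p under 0.05. Over all tested genes 1.12% were called and 11.5% had an unadjusted p under 0.05 by that test. With so few genes, a count of 0 does not set the neighbours apart from other genes. Their log2 fold changes lay between -0.20 (Cgrrf1) and 0.04 (Ktn1). The nearest was Socs4, a suppressor of cytokine signalling 87518 bases away, at -0.05 (standard error 0.10). With a window of 1000 kb, 12 genes were tested and none was called by edgeR's test, with 1, Peli2, at an unadjusted p under 0.05 (log2 fold change -0.33, adjusted p = 0.123).

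The enzymes that use BH4 were mostly near the limit of detection in the left ventricle. Of 7 listed genes, 2 passed the filter. Endothelial nitric oxide synthase, Nos3, was at 25.3 to 31.8 cpm in the WT group and 22.8 to 34.6 cpm in the cmGch1 KO group, differing by 0.02 ± 0.11 (SE, log2 scale) with a 95% interval from -0.21 to 0.25. Inducible Nos2 was at 8.42 to 15.3 cpm in the WT group and 10.3 to 15.6 cpm in the cmGch1 KO group, differing by 0.13 ± 0.15 (SE, log2 scale). Neuronal Nos1 was at 0.221 to 0.551 cpm in the WT group and 0.043 to 0.42 cpm in the cmGch1 KO group, from 1 to 19 counts per library, so that its difference of -0.62 without a filter has an interval from -1.58 to 0.33.

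Agmo, the alkylglycerol monooxygenase of ether lipid breakdown, averaged 2.29 ± 0.205 cpm (SD, n = 6) for the WT group and 2.25 ± 0.165 cpm (SD, n = 6) for the cmGch1 KO group, below the filter. Of the aromatic amino acid hydroxylases, Th had 1 count over the 12 libraries and neither Tph1 nor Tph2 had more than 3 in any library.

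The reductases that can act beside the main route showed no call. Of the carbonyl and aldose reductases, Cbr1 had a log2 fold change of 0.05 (standard error 0.12) and Akr1b3 one of -0.15 (standard error 0.09), while Cbr3 did not pass the filter. Of the 3 genes of this list 2 were tested and 0 were called by edgeR's test, beside 1.12% of all tested genes.

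For the supply of GTP, the substrate of GTPCH, 6 of 6 listed genes were tested and 0 were called, beside 1.12% of all tested genes. The inosine monophosphate dehydrogenases Impdh1 and Impdh2 were at -0.02 (standard error 0.08) and 0.09 (0.08), and the GMP synthetase Gmps was at 0.05 (0.07), on the log2 fold change scale. The guanylate kinase Guk1 was at 0.09 with a standard error of 0.22, and ranged from 44.0 to 95.1 cpm in the WT group and from 56.6 to 119.9 cpm in the cmGch1 KO group, with cmGch1 KO replicate 1 the highest. The nucleoside diphosphate kinase Nme1 had the largest difference of the 3 lists among tested genes, 0.21 (standard error 0.10, unadjusted p = 0.064 and adjusted p = 0.48 by edgeR's test). Over the 10 tested genes of these 3 lists, no gene had an unadjusted p under 0.05, beside 11.5% of all tested genes.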

How the data were processed

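Total RNA from the left ventricle was made into stranded paired-end libraries and sequenced. The authors aligned reads with HISAT2, processed them with Picard and SAMtools and counted them with featureCounts, against GRCm38 according to the submitters' processing notes. The annotation release and strand setting are not given in the sources used here. The authors deposited raw counts per Ensembl gene, and a table of normalised values on a log2-like scale whose tool is not given in the sources used here. Deposited counts were checked to be whole numbers, and 26545 of 26921 identifiers were found in GENCODE M21.

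The 11225 genes that exceeded 3 cpm in 6 or more libraries were tested with edgeR 4.0.16 in R 4.3.3 (TMM, quasi-likelihood, genotype as the term, Benjamini-Hochberg FDR under 0.05). Values in cpm were scaled by TMM factors. Single values were tested by exact permutation with scipy 1.17.1. Alternatives were DESeq2 1.42.0, other scalings, no filter, covariates, left-out libraries, and limma 3.58.1 on the deposited log2-like values. A count of 0 allows up to 3 counts, 0.151 cpm in the smallest library and 0.0791 cpm in the largest, for counting error only. Scripts were tested on simulated data. Named genes are the 7 BH4 genes, 3 related lists, called genes within 500 kb of Gch1, the 5 genes most correlated with Gch1, cell type markers and sex-linked genes; Socs4, Cgrrf1, Ktn1 and Peli2, and the genes that overlap or copy a BH4 gene, were named after their values were seen. Members and lists were chosen with earlier results of these data known. Some items of the related lists are not reported here.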

Additional observations from a re-analysis of the deposited data

Results flagged for a closer look

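Groups of 6 libraries were examined for a single library that stands apart, by the gap to its nearest neighbour over the range of the group. Of 36 such groups among the named genes and the ratio, 2 were flagged, and chance flags about 1 in 20. In cmGch1 KO replicate 1, Qdpr reached 69.0 cpm, and it lay between 53.9 and 57.9 cpm in the other 5 cmGch1 KO libraries. Akr1b3 reached 211.9 cpm in the same library and lay between 157.9 and 173.1 cpm in the others. Without cmGch1 KO replicate 1 the log2 fold change of Qdpr was -0.16, and it was not called.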

How the results depend on the processing

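Gch1 kept its direction and its call under each of 21 alternatives, and the 6 other BH4 genes passed the threshold under none. The log2 fold change of Spr was 0.053 with scaling by library size alone, which moved the median of all tested genes from -0.01 to 0.07, and lay between -0.085 and 0.019 when 1 library was left out, positive without WT replicates 1, 3 or 4 or cmGch1 KO replicates 5 or 6. The difference in the ratio of Gch1 to Gchfr lay between -0.89 and -0.46 when 1 library was left out (exact permutation p 0.026 to 0.104). It was -0.55 on the deposited normalised values, which passed the threshold, and the cause was not tested. With the replicate number as a block it was -0.75 (exact p = 0.0938).

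Over all genes, 155 were lower and 218 higher by DESeq2's Wald test, 24 and 40 with a covariate for sex-linked expression, and 18 and 20 without cmGch1 KO replicates 2 and 3. With library size alone 36 were lower and 116 higher. Leaving out 1 library gave 30 to 97 lower and 45 to 116 higher genes, with the fewest without WT replicate 3, and 97 and 116 without cmGch1 KO replicate 1. Counts also moved by over 1.5 times without WT replicate 5 (33 and 47), cmGch1 KO replicate 2 (50 higher) and cmGch1 KO replicate 3 (47 higher).

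The labels give same-numbered libraries of the 2 genotypes only the number in common, and whether they share anything else is not given. Their deviations correlated between -0.13 and 0.68, over 0.1 in 3 of 6 pairs, and 3 of 6 WT libraries correlated best with their own number. With the replicate number as a block, 76 genes were lower and 112 higher, Gch1 was at -0.97, and no other BH4 gene was called. Depth limits Th, Tph1 and Tph2 most, with 0 counts in 11, 7 and 9 of the 12 libraries, then Nos1 and Pcbd1, with as few as 1 and 6 counts in a library.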
